A study of Mus musculus with 6 samples.

Results

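The growth hormone and insulin-like growth factor axis was followed through 10 genes in the diabetic mouse kidney: the ligand gene Igf1, the receptor genes Igf1r and Ghr, and the binding protein genes Igfbp1 to Igfbp7. They were picked by gene symbol, and all 10 were found among the 55401 genes of the deposited tables. Of these, 8 had enough counts to be tested and the other 2, Igfbp2 and Igfbp6, are described by their counts. Kidney mRNA, captured with oligo(dT), was sequenced from 3 Cdo1KKO/Sed and 3 WT/Sed mice, each labelled as a biological replicate. Every animal of both groups had type 1 diabetes induced with streptozotocin, a toxin of the pancreatic beta cell. Cdo1KKO/Sed mice carry the genotype named Cdo1KKO, in a study of cysteine dioxygenase (Cdo1) of the renal tubule, and WT/Sed mice are wild type. The labels used here do not spell out Sed, and they give no age, sex or promoter behind the knockout, and no kidneys of mice without diabetes were part of the comparison.

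Growth hormone binds its receptor, Ghr, and drives the transcription of Igf1 through the kinase JAK2 and the factor STAT5, most of all in the liver. IGF1 signals through the tyrosine kinase receptor encoded by Igf1r, and IGF binding proteins hold the ligand in the circulation and around cells, release it after proteolysis, or keep it from the receptor. Both Ghr and Igf1r are made along the nephron, and the axis is known for renal hypertrophy and glomerular change in diabetic rodents.

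The libraries held 28145261 to 43872779 counts, and 17194 genes were tested with edgeR's quasi-likelihood test and Benjamini-Hochberg adjustment over all of them. Adjusted p-values below come from that test unless another is named, with a threshold of 0.05. Values in CPM are counts scaled to the TMM-adjusted library size, used between groups. Values in TPM are the authors' length-scaled levels, used between genes. Cdo1 itself was read at 109, 118 and 103 CPM in the Cdo1KKO/Sed libraries, against 181, 191 and 180.5 CPM in the WT/Sed libraries, and fell by 0.74 ± 0.06 on the log2 scale (SE, n = 3 each; adjusted p = 4.64e-06). The groups did not overlap, and the Cdo1 mRNA that remained was 59.8% of the WT/Sed mean. The kidney's own markers were present in all libraries. WT/Sed replicates 2 and 3 lay farthest apart. The chi-square per degree of freedom between their counts was 32.9, against 12.2 for replicates 1 and 2 and 10.6 for replicates 1 and 3. Thus 9 endothelial markers summed to 290, 274 and 278 CPM in the Cdo1KKO/Sed libraries, against 189, 317 and 82.2 CPM in WT/Sed replicates 1, 2 and 3. Values without replicate 2 or 3 are given beside the genes of the axis that they move most. In whole kidney, fewer cells of a type and less RNA per cell cannot be told apart.

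Of the 8 tested genes of the axis, 2 were higher in Cdo1KKO/Sed (Igf1 and Igfbp5), 5 were lower (Igf1r, Ghr, Igfbp1, Igfbp4 and Igfbp7), and Igfbp3 did not pass the test. Over all genes tested, 37.4% passed, 18.9% as higher and 18.5% as lower. In 7 of the 8 genes the CPM of the groups did not overlap, which held for 50.3% of all genes tested. The median log2 fold change of the 8 was -0.53, beside 0.01 over all genes tested.

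**Figure D1:**
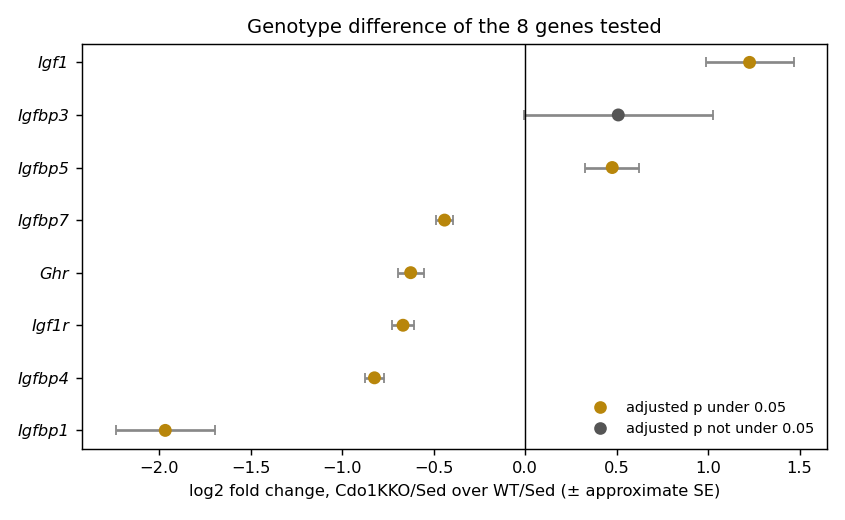
Log2 fold change of Cdo1KKO/Sed over WT/Sed for the 8 tested genes of the axis (x axis, log2 of the CPM ratio), with bars of 1 SE; genes with an adjusted p under 0.05 are in gold and the gene that missed it in grey. Igf1 at 1.23 and Igfbp1 at -1.97 lie at the ends, and Igfbp3 has the widest bar.

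Levels differed between genes by orders of magnitude. In Cdo1KKO/Sed kidneys the order in mean TPM was Igfbp7 (839 ± 13.1), Igfbp4 (313 ± 14.0), Ghr (212 ± 3.67), Igfbp5 (165 ± 2.78), Igfbp3 (70.8 ± 0.360), Igf1r (30.3 ± 0.393), Igfbp1 (4.88 ± 1.16), Igf1 (2.41 ± 0.0600), Igfbp2 (0.336 ± 0.199) and Igfbp6 (0.332 ± 0.137; SD, n = 3). Among neighbours in that order, the libraries of Igfbp2 and Igfbp6 overlapped and no others did. In WT/Sed kidneys the first 8 places held the same genes in the same order, with Igfbp7 at 956 ± 15.4, Igfbp4 at 465 ± 2.82 and Ghr at 275 ± 33.3 TPM (SD, n = 3). Igfbp3 at 41.9 ± 24.4 and Igf1r at 40.5 ± 3.40 TPM overlapped there, as did Igf1 at 0.876 ± 0.339 and Igfbp6 at 0.715 ± 0.202 TPM. Igf1r was thus read well above Igf1, its ligand, in either group.

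**Figure D2:**
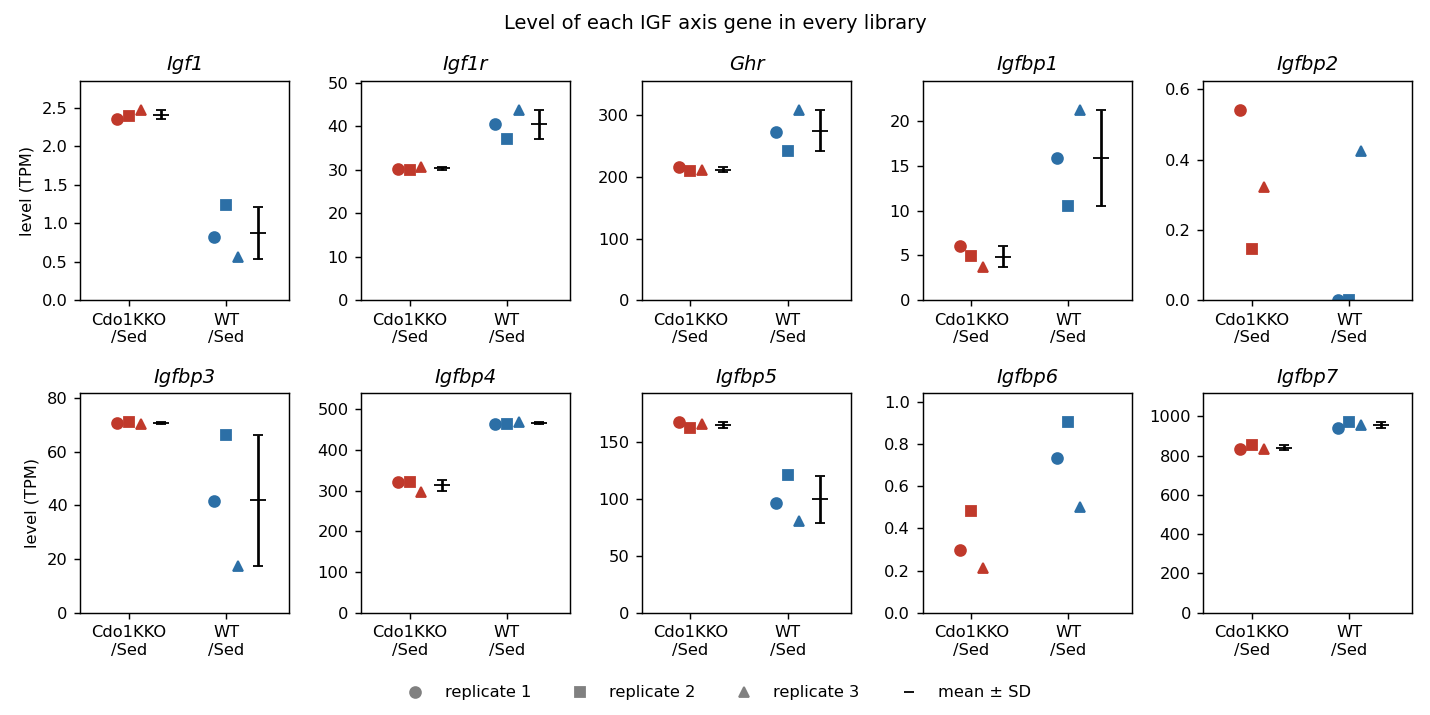
TPM (y axis, linear, from 0, with its own range in each panel) of the 10 genes in every library, Cdo1KKO/Sed in red and WT/Sed in blue, with marker shape giving the replicate number and bars giving mean ± SD where the gene was tested. The Cdo1KKO/Sed points lie close together in most panels, while WT/Sed points of Igf1, Igfbp1, Igfbp3 and Igfbp5 are spread out.

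The growth hormone receptor gene Ghr (ENSMUSG00000055737.12, GRCm38 chr15:3317760-3583492, minus strand) had 717, 708 and 699.6 CPM in the Cdo1KKO/Sed libraries, against 1087, 978 and 1215 CPM in the WT/Sed libraries. All 3 Cdo1KKO/Sed libraries lay below all 3 WT/Sed libraries. Ghr fell by 0.63 ± 0.07 on the log2 scale, to 64.8% of the WT/Sed mean (SE, n = 3 each; adjusted p = 5.06e-05). Without WT/Sed replicate 3, its highest library, Ghr fell by 0.55 (adjusted p = 1.64e-07), and without replicate 2, its lowest, by 0.70 (adjusted p = 1.59e-09).

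The receptor gene Igf1r (ENSMUSG00000005533.10, chr7:67952827-68233668, plus strand), which encodes the tyrosine kinase that IGF1 binds, had 187, 188 and 189 CPM in Cdo1KKO/Sed kidneys, against 299, 278 and 320.0 CPM in WT/Sed kidneys. The Cdo1KKO/Sed libraries were nearly equal and all below the WT/Sed ones. Igf1r fell by 0.67 ± 0.06 on the log2 scale, to 62.9% of the WT/Sed mean (SE, n = 3 each; adjusted p = 7.2e-06). Both receptor genes therefore fell to a similar share of their WT/Sed mean. Whether these shares differ from each other was not tested.

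The ligand gene Igf1 (ENSMUSG00000020053.18, chr10:87858265-87937042, plus strand) was read at a low level, with 280, 353 and 412 counts in Cdo1KKO/Sed and 140, 146 and 100 counts in WT/Sed. Scaled to CPM these were 8.57, 8.88 and 8.98 in Cdo1KKO/Sed, against 3.60, 5.47 and 2.43 in WT/Sed. The lowest Cdo1KKO/Sed library was above the highest WT/Sed library, and the WT/Sed libraries differed among themselves by 2.25-fold. Igf1 rose by 1.23 ± 0.24 on the log2 scale, or 2.34-fold (SE, n = 3 each; adjusted p = 0.00324). Without WT/Sed replicate 3, its lowest library, the log2 fold change was 0.98 (adjusted p = 0.000192). Without replicate 2, its highest, it was 1.55 (adjusted p = 4.61e-07), and over all alternatives it ran between 0.88 and 1.55. The antisense gene Igf1os, which overlaps Igf1, had 0 counts in every library, so no read in the tables was assigned to it.

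As the liver is the main source of IGF1, hepatocyte markers were read in the same libraries. Of 10 listed, 5 were tested and 2, Apoc3 and Fetub, were lower (1 without WT/Sed replicate 1 or Cdo1KKO/Sed replicate 1), and Mup3 was at 0 in all libraries. Their summed CPM was 258 to 283 in Cdo1KKO/Sed and 215 to 314 in WT/Sed, ranges that overlap. Alb, the gene of serum albumin, was a small part of that sum. It had 6.98, 5.53 and 5.58 CPM in Cdo1KKO/Sed kidneys, against 6.48, 6.45 and 7.69 CPM in WT/Sed kidneys. Which cells gave the rest of the sum was not tested. Macrophages and fibroblasts make IGF1 in many tissues. Of their markers, 6 of 9 for macrophages and dendritic cells and 6 of 10 for fibroblasts, pericytes and mesangium were higher in Cdo1KKO/Sed. In each list 1 was lower. Over all genes tested, 18.9% were higher and 18.5% lower. The macrophage count was 2 without WT/Sed replicate 1 or without any single Cdo1KKO/Sed library. Macrophage markers summed to 88.0 to 89.4 CPM in Cdo1KKO/Sed and 55.2 to 85.4 CPM in WT/Sed, and the fibroblast list to 146 to 162 CPM in Cdo1KKO/Sed and 98.5 to 163 CPM in WT/Sed. Per 100 CPM of macrophage markers Igf1 had 9.74, 10.03 and 10.04 CPM in Cdo1KKO/Sed kidneys, against 5.27, 6.41 and 4.40 CPM in WT/Sed kidneys. Csf1r, the macrophage marker that was lower, made up 40.9%, 41.9% and 41.1% of the sum in Cdo1KKO/Sed and 65.8%, 62.2% and 73.8% in WT/Sed. Per 100 CPM of the other 8 markers, Igf1 had 16.5, 17.3 and 17.0 CPM in Cdo1KKO/Sed and 15.4, 17.0 and 16.8 CPM in WT/Sed, which overlap. Against the geometric mean of all 9, which weights them equally, it stood at 1.19, 1.25 and 1.23 in Cdo1KKO/Sed and 1.04, 1.17 and 1.14 in WT/Sed, close but with no overlap. Per 100 CPM of the fibroblast list Igf1 had 5.59, 6.09 and 5.54 CPM in Cdo1KKO/Sed kidneys, against 2.84, 3.35 and 2.47 CPM in WT/Sed kidneys. Without Ren1, the lower marker of that list, it had 6.38, 6.83 and 6.30 CPM in Cdo1KKO/Sed and 4.20, 5.25 and 3.62 CPM in WT/Sed, with no overlap. The part of these cells in the Igf1 result was not tested, and the ratios are descriptions chosen after the levels were seen.

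Igf1 rose while Igf1r fell, so the balance of their mRNAs differed between groups. Per 1 TPM of Igf1 there were 12.8, 12.5 and 12.4 TPM of Igf1r in Cdo1KKO/Sed, against 49.1, 29.9 and 77.6 TPM in WT/Sed. The 7 binding protein genes together had 593, 591 and 553 TPM per 1 TPM of Igf1 in Cdo1KKO/Sed, against 1890, 1319 and 2738 TPM in WT/Sed. Neither ratio overlapped between groups. Most of that gap came from Igf1, since the binding proteins summed to 1398, 1414 and 1369 TPM in Cdo1KKO/Sed against 1560, 1633 and 1546 TPM in WT/Sed.

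Among the binding proteins, Igfbp1 (ENSMUSG00000020429.7, chr11:7197782-7202546, plus strand) is the member best known for acute control: its transcription in liver is lowered by insulin, through FOXO factors that bind an insulin response sequence in its promoter. Bases upstream of its start in RefSeq (GRCm38.p6, chr11:7197537-7197781, plus strand), which end at the GENCODE start and so 5 bases short of the RefSeq start, are shown because they hold the letters CAAAACA, the core of that sequence as described in the human gene, which are in capitals.

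Igfbp1 promoter: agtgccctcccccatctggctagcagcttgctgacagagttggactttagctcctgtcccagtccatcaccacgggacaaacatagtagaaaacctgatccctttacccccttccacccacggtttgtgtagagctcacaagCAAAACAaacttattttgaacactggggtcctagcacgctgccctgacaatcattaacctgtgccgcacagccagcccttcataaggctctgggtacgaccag

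The core lies at positions -108 to -102 from the RefSeq start. In the 250 bases before each start, CAAAACA was found on either strand in 1 of the 12 promoter windows of the 10 genes, that of Igfbp1, and in 5.56% of 32851 mouse windows of the same length. The related forkhead core GTAAACA was found in 0 of the 12 windows and in 3.17% of all. A match is a description of letters and not of a bound site.

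Igfbp1 had 3.37, 2.82 and 2.07 CPM in the Cdo1KKO/Sed libraries, against 10.6, 7.12 and 14.1 CPM in the WT/Sed libraries. The highest Cdo1KKO/Sed library was below the lowest WT/Sed library. Igfbp1 fell by 1.97 ± 0.27 on the log2 scale, to 25.6% of the WT/Sed mean (SE, n = 3 each; adjusted p = 0.000577), which was the largest change of the 8 tested genes. Without WT/Sed replicate 3, its highest library, it fell by 1.72 (adjusted p = 9.66e-06), and without replicate 2, its lowest, by 2.18 (adjusted p = 3.38e-08). Of the 12660 protein-coding genes compared, those whose log2 CPM over the 6 libraries ran closest to Igfbp1 included Isoc1 (Pearson r = 0.998) and Eci1, a mitochondrial enzyme of fatty acid oxidation (r = 0.997). Both were lower in Cdo1KKO/Sed, with log2 fold changes of -0.33 for Isoc1 and -0.76 for Eci1. These correlations describe 6 libraries that fall into 2 groups.

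Igfbp4 (ENSMUSG00000017493.12, chr11:99041244-99054392, plus strand) encodes a binding protein that holds IGF1 away from its receptor until pappalysin cleaves it. Its promoter in RefSeq (GRCm38.p6, chr11:99040994-99041243, plus strand) is shown beside that of Igfbp1 as the binding protein gene with the smallest adjusted p. The capitals mark a TATAAA core at positions -28 to -23.

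Igfbp4 promoter: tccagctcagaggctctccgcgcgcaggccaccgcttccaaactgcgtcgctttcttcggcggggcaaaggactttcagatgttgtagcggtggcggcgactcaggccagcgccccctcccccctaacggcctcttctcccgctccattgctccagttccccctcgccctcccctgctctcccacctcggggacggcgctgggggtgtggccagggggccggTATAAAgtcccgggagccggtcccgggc

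TATAAA was found on either strand in 3 of the 12 windows, those of Igfbp4, Igfbp6 and 1 of the 2 Ghr windows, and in 12.4% of all 32851. The core ACGTG, which HIF factors bind, was in 2 of the 12, those of Igfbp7 and 1 window of Igfbp2, and in 16.6% of all. The palindrome TTCNNNGAA, which STAT5 binds, was in 0 of the 12 and in 7.02% of all. Among these 5 motifs, searched on both strands, each held a different run of letters, and none overlapped another in the printed sequences.

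Igfbp4 had 521.5, 531 and 481 CPM in the Cdo1KKO/Sed libraries, against 903, 913 and 899.5 CPM in the WT/Sed libraries. The groups were far apart and the 3 WT/Sed libraries nearly equal. Igfbp4 fell by 0.82 ± 0.05 on the log2 scale, to 56.5% of the WT/Sed mean (SE, n = 3 each; adjusted p = 6.17e-07), which was the smallest adjusted p among the genes of the axis.

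Igfbp7 (ENSMUSG00000036256.13, chr5:77349240-77408041, minus strand) encodes a secreted protein with low affinity for IGFs that is known as a urinary marker of tubular stress. Its libraries had 369, 387 and 368.5 CPM in Cdo1KKO/Sed kidneys, against 500.3, 524 and 503 CPM in WT/Sed kidneys, with no overlap. Igfbp7 fell by 0.44 ± 0.05 on the log2 scale, to 73.6% of the WT/Sed mean (SE, n = 3 each; adjusted p = 3.9e-05). Its locus overlaps Polr2b on the opposite strand, which had 2176, 2696 and 3056 counts in Cdo1KKO/Sed and 2664, 1700 and 3203 counts in WT/Sed. Since the strandedness of the counting is not given in the sources used here, reads of these genes cannot be told apart where they overlap.

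The scale matters for the genes that fell. On log2(TPM + 1) with limma the median of all genes lay at 0.19, and on that scale Igfbp7 fell by 0.19 (adjusted p = 0.00357), Ghr by 0.37 (adjusted p = 0.00874), Igf1r by 0.40 (adjusted p = 0.00241) and Igfbp4 by 0.57 (adjusted p = 6.12e-05). Igfbp1 fell by 1.49 on that scale (adjusted p = 0.00223, limma). All 5 genes remained lower, by amounts smaller than on CPM.

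The means of Igfbp5 and Igfbp3 were higher in Cdo1KKO/Sed, and Igfbp5 alone passed the test. Igfbp5 (ENSMUSG00000026185.8, chr1:72857932-72874884, minus strand), whose protein binds extracellular matrix, had 369.6, 365 and 364 CPM in Cdo1KKO/Sed kidneys, against 255, 325 and 211 CPM in WT/Sed kidneys. The groups did not overlap, though WT/Sed replicate 2 came near. Igfbp5 rose by 0.48 ± 0.15 on the log2 scale, or 1.39-fold (SE, n = 3 each; adjusted p = 0.0443). This call was lost with upper quartile scaling (adjusted p = 0.0721), without WT/Sed replicate 1 (0.118), and without Cdo1KKO/Sed replicate 1 (0.0941), 2 (0.103) or 3 (0.106). Without WT/Sed replicate 3 the log2 fold change was 0.33 (adjusted p = 0.0121), and without replicate 2 it was 0.65 (adjusted p = 1.29e-06). On log2(TPM + 1) with limma it was 0.74 (adjusted p = 0.00281).

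Igfbp3 (ENSMUSG00000020427.11, chr11:7206086-7213923, minus strand) encodes the main carrier of IGF1 in blood, and in kidney its mRNA is known from endothelium. It had 81.4, 83.4 and 80.8 CPM in Cdo1KKO/Sed kidneys, against 57.5, 92.8 and 23.9 CPM in WT/Sed kidneys. WT/Sed replicate 2 was above and the other two WT/Sed libraries below all Cdo1KKO/Sed libraries. The coefficient of variation was 1.70% in Cdo1KKO/Sed and 59.3% in WT/Sed. The log2 fold change was 0.51 ± 0.52 (SE, n = 3 each; adjusted p = 0.511). Leaving out WT/Sed replicate 2 gave 1.01 (adjusted p = 0.184) and leaving out WT/Sed replicate 3 gave 0.13 (adjusted p = 0.731).

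The WT/Sed spread of Igfbp3 ran beside that of the endothelial markers. Per 1 CPM of the summed endothelial markers, Igfbp3 had 0.281, 0.305 and 0.291 CPM in Cdo1KKO/Sed and 0.304, 0.292 and 0.291 CPM in WT/Sed. These ratios overlapped, while the levels of Igfbp3 in WT/Sed differed by 3.88-fold. The order of the WT/Sed libraries was not particular to endothelium. In replicates 1, 2 and 3 podocyte markers summed to 328, 461 and 238 CPM, and the fibroblast list to 127, 163 and 98.5 CPM. The opposite order held for markers of the thick ascending limb (2820, 2343 and 3144 CPM). It also held for the hepatocyte list (266, 215 and 314 CPM), of which Alb was a small part. None of the 9 endothelial markers passed edgeR's test, with 0 at an unadjusted p under 0.05 and 0 with DESeq2, while limma-voom called 5 of them higher and limma called 3 on log2(TPM + 1) and 1 on log2(TPM + 0.1). Without WT/Sed replicate 3, edgeR called 1 of the 9 lower. Igfbp5 did not keep such a ratio, with 1.28, 1.33 and 1.31 CPM per CPM of endothelial markers in Cdo1KKO/Sed and 1.35, 1.02 and 2.56 CPM in WT/Sed.

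The genes that fell were set beside the proximal tubule in the same way. All 10 proximal tubule markers were lower in Cdo1KKO/Sed, beside 18.5% of all genes tested. Their median log2 fold change was -0.70, and their CPM summed to 9592, 10191 and 9263 in Cdo1KKO/Sed against 16658, 17013 and 16054 in WT/Sed. Per 100 CPM of that sum, Igfbp4 had 5.44, 5.21 and 5.19 CPM in Cdo1KKO/Sed and 5.42, 5.37 and 5.60 CPM in WT/Sed, which overlap. Slc27a2 and Slc34a1 made up 56.4% to 64.2% of the sum. Against the geometric mean of the 10 markers, which weights them equally, Igfbp4 stood at 0.882, 0.863 and 0.844 in Cdo1KKO/Sed and 0.944, 0.958 and 0.968 in WT/Sed, with no overlap. A lower sum was not particular to the proximal tubule. Collecting duct principal cell markers summed to 297, 311 and 305 CPM in Cdo1KKO/Sed against 549, 559 and 545 CPM in WT/Sed. Only 2 of these 6, Aqp2 and Aqp3, were called lower. Their means were 107 and 52.9 CPM in Cdo1KKO/Sed against 293 and 112 CPM in WT/Sed. The median log2 fold change of the 6 was -0.07. The sums of thick ascending limb and distal convoluted tubule markers were higher in Cdo1KKO/Sed. Of the 5 thick ascending limb markers, 3 were called higher and 2, Cldn16 and Ppp1r1a, were called lower. Of the 5 distal convoluted tubule markers, 4 were called higher and 0 lower. Igfbp4 was not set beside these lists.

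The other lower genes differed in this ratio. Ghr had 7.48, 6.94 and 7.55 CPM per 100 CPM of proximal markers in Cdo1KKO/Sed and 6.52, 5.75 and 7.57 CPM in WT/Sed. Igf1r had 1.95, 1.85 and 2.04 CPM in Cdo1KKO/Sed and 1.80, 1.63 and 1.99 CPM in WT/Sed, so both receptor genes overlapped between groups. Igfbp7 was higher by this measure, at 3.85, 3.80 and 3.98 CPM in Cdo1KKO/Sed kidneys, against 3.00, 3.08 and 3.14 CPM in WT/Sed kidneys. Igfbp1 was lower, at 0.0351, 0.0276 and 0.0224 CPM in Cdo1KKO/Sed kidneys, against 0.0639, 0.0419 and 0.0877 CPM in WT/Sed kidneys, again with no overlap. The part of the proximal tubule in these differences was not tested. These ratios too were chosen after the levels were seen.

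**Figure D3:**
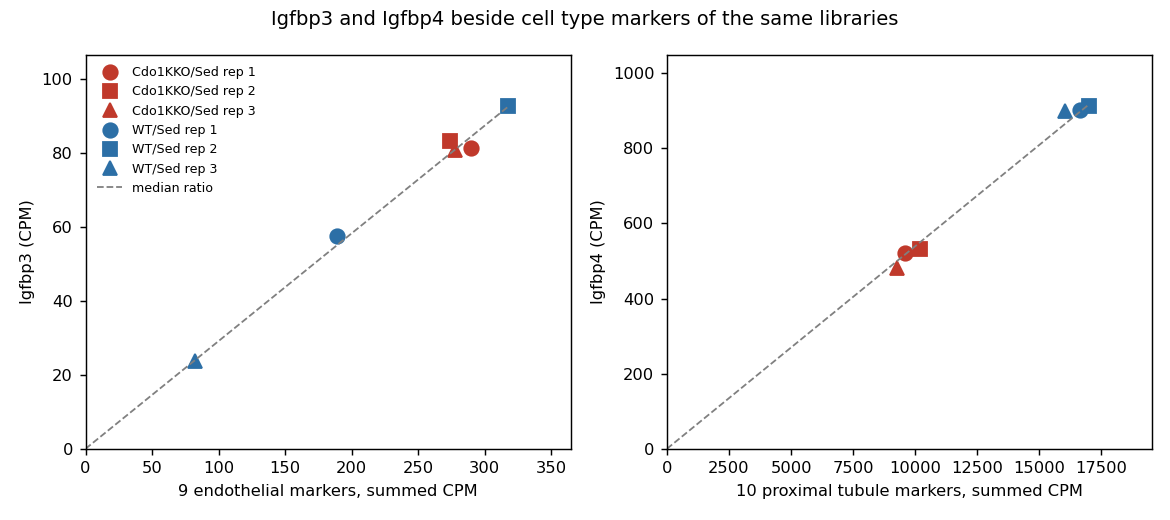
Left, CPM of Igfbp3 (y axis) against the summed CPM of 9 endothelial markers (x axis), and right, CPM of Igfbp4 against the summed CPM of 10 proximal tubule markers, with 1 point per library, Cdo1KKO/Sed in red and WT/Sed in blue, and a dashed line through 0 at the median ratio of the 6 libraries. In both panels the points lie near the line; on the left the WT/Sed libraries spread along it, and on the right the groups sit at separate places on it.

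The rarest binding proteins were at the edge of detection. Igfbp2 (ENSMUSG00000039323.18, chr1:72824503-72852474, plus strand) had 12, 4 and 10 counts in Cdo1KKO/Sed, against 0, 0 and 14 counts in WT/Sed. A count of 0 allows up to 0.0770 CPM in WT/Sed replicate 1 and 0.112 CPM in replicate 2, counting error only. Igfbp6 (ENSMUSG00000023046.6, chr15:102144362-102149511, plus strand), which prefers IGF2 over IGF1, had 4, 8 and 4 counts in Cdo1KKO/Sed, against 14, 12 and 10 counts in WT/Sed. Its CPM did not overlap between groups. Fitted without a filter on low counts, the log2 fold change was 0.87 ± 0.86 for Igfbp2 (adjusted p = 0.518) and -1.32 ± 0.75 for Igfbp6 (adjusted p = 0.232; SE, n = 3 each), so neither difference was detectable at this depth.

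The make-up of the binding protein mRNA differed between groups. Igfbp7 took 60.2% ± 0.665 of the summed TPM of the 7 genes in Cdo1KKO/Sed and 60.6% ± 1.25 in WT/Sed, and Igfbp4 took 22.5% ± 0.679 in Cdo1KKO/Sed and 29.5% ± 1.01 in WT/Sed (SD, n = 3 each). Igfbp5 took 11.8% ± 0.338 in Cdo1KKO/Sed and 6.28% ± 1.10 in WT/Sed, and Igfbp3 took 5.08% ± 0.0586 in Cdo1KKO/Sed and 2.63% ± 1.47 in WT/Sed. Igfbp1 took 0.350% ± 0.0797 in Cdo1KKO/Sed and 1.01% ± 0.367 in WT/Sed. Igfbp4 and Igfbp7 together made 82.5%, 83.1% and 82.5% in the Cdo1KKO/Sed libraries, against 90.1%, 87.8% and 92.2% in the WT/Sed libraries, which do not overlap.

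**Figure D4:**
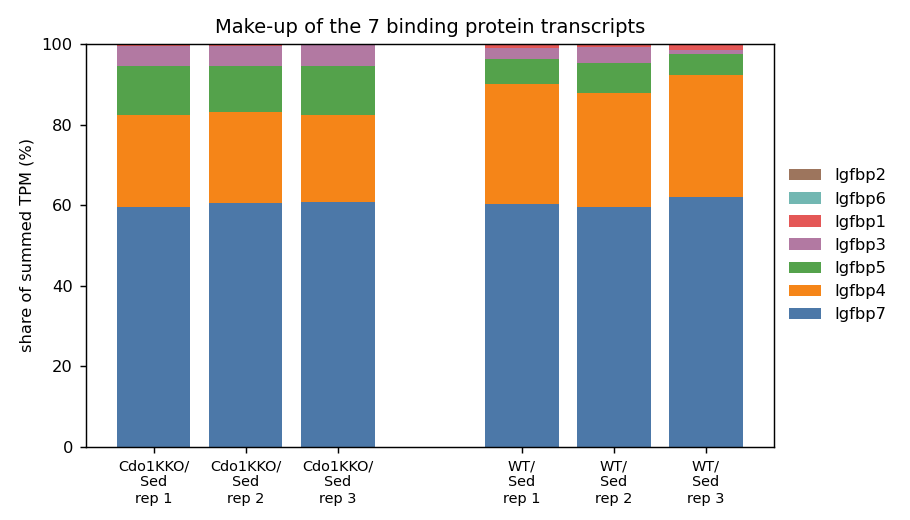
Share of each binding protein gene in the summed TPM of the 7 genes (y axis, percent, stacked from 0) in each library, Cdo1KKO/Sed on the left and WT/Sed on the right; the shares of Igfbp2 and Igfbp6 are too thin to see. The bands of Igfbp5 and Igfbp3 are thicker in Cdo1KKO/Sed, at means of 11.8% and 5.08% against 6.28% and 2.63% in WT/Sed.

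Of the genes of the axis, 4 are genomic neighbours. Igfbp1 and Igfbp3 lie end to end on chromosome 11 with a gap of 3539 bases, and Igfbp1 was lower while Igfbp3 did not pass the test. Igfbp2 and Igfbp5 lie end to end on chromosome 1 with a gap of 5457 bases, and Igfbp5 was higher while Igfbp2 could not be tested. Within WT/Sed, replicate 2 was nearest to the Cdo1KKO/Sed mean for 6 of the 8 tested genes and replicate 3 farthest for 6 of the 8. Such shares were not counted over all genes tested, so the pattern cannot be called particular to the axis. The highest library exceeded the lowest by at most 1.10-fold in Cdo1KKO/Sed for 7 of the 8 genes, Igfbp1 at 1.63-fold being the exception.

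Around the axis, 56 further genes of growth hormone and IGF signalling were listed and 51 were tested, of which 12 were higher in Cdo1KKO/Sed, 17 were lower and 22 did not pass. The share called in either direction over all genes was 37.4%, and the median log2 fold change of the 51 was -0.08, beside 0.01 over all genes. The split depended on scaling, with 16 higher and 10 lower by library size only and 18 higher and 6 lower on log2(TPM + 1). Over all genes the split was 3250 higher and 3185 lower, against 5513 and 1685 by library size only and 6784 and 1246 on log2(TPM + 1).

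In growth hormone signalling, 2 of 9 tested genes were higher and 3 lower. Socs3, an inhibitor of cytokine receptor signalling that JAK-STAT activity induces, rose to 29.6 ± 1.14 CPM in Cdo1KKO/Sed kidneys, against 1.71 ± 1.05 CPM in WT/Sed kidneys (SD, n = 3 each; log2 fold change 4.20 ± 0.36, adjusted p = 0.000324). Socs2, the feedback inhibitor of the growth hormone receptor, rose to 104 ± 17.1 CPM in Cdo1KKO/Sed kidneys, against 38.6 ± 10.5 CPM in WT/Sed kidneys (log2 fold change 1.42 ± 0.24, adjusted p = 0.00846, and 0.0687 with the replicate number as a block). Cish, another STAT5 target of this family, fell to 35.0 ± 4.90 CPM in Cdo1KKO/Sed kidneys, against 70.2 ± 17.0 CPM in WT/Sed kidneys (adjusted p = 0.0113). The 3 genes of the SOCS family tested thus did not share a direction. Stat5b, the signal transducer, fell to 31.6 ± 1.03 CPM in Cdo1KKO/Sed kidneys, against 41.3 ± 3.13 CPM in WT/Sed kidneys (adjusted p = 0.00138), a call lost on log2(TPM + 1) (adjusted p = 0.167). Ghrhr, the receptor of growth hormone releasing hormone, had 4, 12 and 10 counts in Cdo1KKO/Sed against 84, 59 and 87 counts in WT/Sed, and fell by 3.29 ± 0.34 on the log2 scale (adjusted p = 2.39e-05).

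Among other receptors and carriers, 2 of 4 tested genes were lower. Insr, the insulin receptor, fell to 116 ± 3.70 CPM in Cdo1KKO/Sed kidneys, against 149 ± 16.8 CPM in WT/Sed kidneys (SD, n = 3 each; log2 fold change -0.35 ± 0.08, adjusted p = 0.00397). This call was lost by library size only (adjusted p = 0.0637) and on log2(TPM + 1) (adjusted p = 0.437). Igfals, the acid-labile subunit that joins IGF1 and IGFBP3 in blood, fell to 5.39 ± 1.12 CPM in Cdo1KKO/Sed kidneys, against 9.05 ± 2.04 CPM in WT/Sed kidneys (adjusted p = 0.0114), a call lost on log2(TPM + 1) (0.0881), without WT/Sed replicate 1 (0.0643) and without Cdo1KKO/Sed replicate 1 (0.0561) or 3 (0.0550). Igf2r, which takes up IGF2 for degradation, had 143 ± 3.76 CPM in Cdo1KKO/Sed and 151 ± 15.2 CPM in WT/Sed (adjusted p = 0.399), and Insrr had 21.8 ± 0.858 CPM in Cdo1KKO/Sed and 24.7 ± 6.0 CPM in WT/Sed (adjusted p = 0.437). Igf2 itself had 6 counts in Cdo1KKO/Sed replicate 1 and 0 in the other 5 libraries.

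Of the 8 genes for proteases of binding proteins and their inhibitors, 1 was higher and 4 were lower. Stc1, whose protein inhibits pappalysins, had 4.50, 3.52 and 3.88 CPM in Cdo1KKO/Sed kidneys, against 19.6, 18.7 and 21.7 CPM in WT/Sed kidneys, with no overlap, and fell by 2.34 ± 0.12 on the log2 scale (SE, n = 3 each; adjusted p = 1.26e-07). Htra1, a secreted serine protease, fell to 91.3 ± 8.25 CPM in Cdo1KKO/Sed kidneys, against 143 ± 8.13 CPM in WT/Sed kidneys (adjusted p = 3.72e-05). Pappa2, which cleaves IGFBP3 and IGFBP5, fell to 1.67 ± 0.261 CPM in Cdo1KKO/Sed kidneys, against 3.93 ± 1.60 CPM in WT/Sed kidneys (adjusted p = 0.00816, and 0.0828 on log2(TPM + 1)). Pappa, which cleaves IGFBP4, fell to 16.0 ± 1.13 CPM in Cdo1KKO/Sed kidneys, against 19.4 ± 0.639 CPM in WT/Sed kidneys (adjusted p = 0.0207). The TPM of Pappa overlapped between groups, at 4.09, 3.55 and 4.12 in Cdo1KKO/Sed and 4.08, 4.02 and 3.90 in WT/Sed. Adam12, a metalloprotease that cleaves IGFBP3 and IGFBP5, was the gene that rose, with 62, 74 and 90 counts in Cdo1KKO/Sed against 22, 18 and 12 counts in WT/Sed (log2 fold change 1.93 ± 0.32, adjusted p = 0.000771).

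Behind the IGF1 receptor, 6 of 20 genes were higher and 6 lower. Irs2, an adaptor of the insulin and IGF1 receptors, had 35.3, 38.7 and 34.9 CPM in Cdo1KKO/Sed kidneys, against 104, 96.2 and 105 CPM in WT/Sed kidneys, and fell by 1.48 ± 0.06 on the log2 scale (SE, n = 3 each; adjusted p = 2.68e-08). Foxo3, a forkhead factor that AKT keeps out of the nucleus, fell to 62.1 ± 1.87 CPM in Cdo1KKO/Sed kidneys, against 109 ± 17.5 CPM in WT/Sed kidneys (SD; adjusted p = 0.000489). Pik3r1, the regulatory subunit of PI3 kinase, rose to 110 ± 2.99 CPM in Cdo1KKO/Sed kidneys, against 53.2 ± 6.74 CPM in WT/Sed kidneys (adjusted p = 4.19e-06). Shc1, the adaptor towards RAS, rose to 61.5 ± 0.848 CPM in Cdo1KKO/Sed kidneys, against 39.5 ± 0.834 CPM in WT/Sed kidneys (adjusted p = 5.62e-06). Irs2 and Shc1 thus moved in opposite directions.

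Of 7 tested relatives that carry an IGFBP domain, 3 were higher and 1 was lower. Ccn1, a matricellular protein of injured tissue, rose to 38.4 ± 3.47 CPM in Cdo1KKO/Sed kidneys, against 23.4 ± 2.75 CPM in WT/Sed kidneys (SD, n = 3 each; adjusted p = 0.000164). Ccn2, known as connective tissue growth factor, rose to 30.1 ± 0.524 CPM in Cdo1KKO/Sed kidneys, against 23.0 ± 4.50 CPM in WT/Sed kidneys (adjusted p = 0.0242), but missed the threshold when WT/Sed replicate 1 (0.113) or any single Cdo1KKO/Sed library (0.0698 to 0.0958) was left out. Ccn4 rose to 1.36 ± 0.106 CPM in Cdo1KKO/Sed kidneys, against 0.646 ± 0.289 CPM in WT/Sed kidneys (adjusted p = 0.0334), but missed the threshold when WT/Sed replicate 3 (0.0786) or any single Cdo1KKO/Sed library (0.0723 to 0.103) was left out. Crim1, a transmembrane protein that binds BMPs, fell to 87.3 ± 1.32 CPM in Cdo1KKO/Sed kidneys, against 106 ± 5.69 CPM in WT/Sed kidneys (adjusted p = 0.00213, but 0.125 by library size only and 0.788 on log2(TPM + 1), where the log2 fold change was -0.02). Of the IGF2 mRNA binding proteins, Igf2bp1 was just under the threshold (log2 fold change -0.39 ± 0.14, adjusted p = 0.0494) and missed it under most alternatives, DESeq2 included (adjusted p = 0.0508). Igf2bp2 had 16.5 ± 1.36 CPM in Cdo1KKO/Sed and 11.5 ± 5.64 CPM in WT/Sed (adjusted p = 0.372), and Igf2bp3 had 0.648 ± 0.167 CPM in Cdo1KKO/Sed and 0.617 ± 0.345 CPM in WT/Sed (adjusted p = 0.957).

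**Figure D5:**
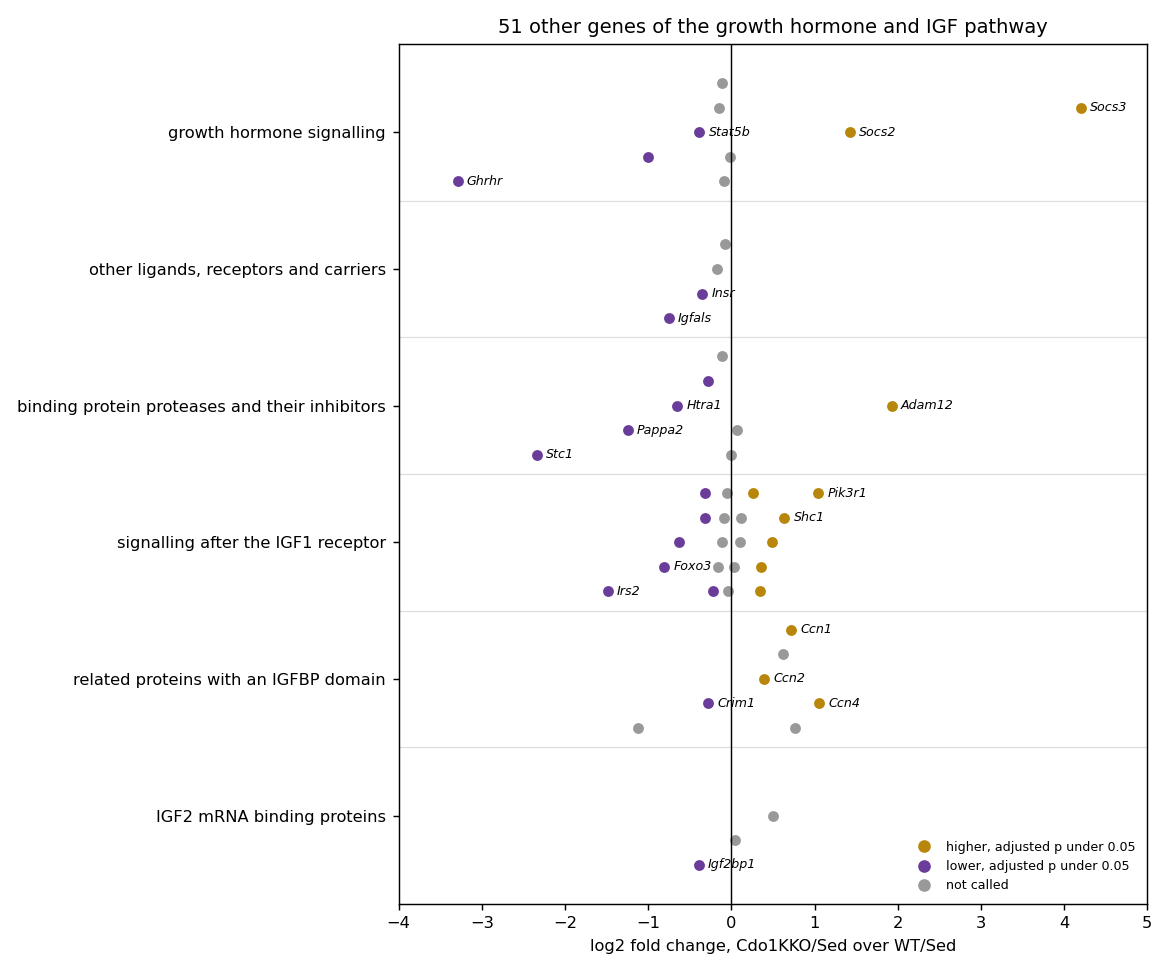
Log2 fold change of Cdo1KKO/Sed over WT/Sed (x axis) of the 51 tested pathway genes, 1 point per gene, in rows by list. Colour gives whether the gene passed the threshold as higher, lower or neither. Names mark those of the 4 genes of smallest p in each list that passed the threshold. Socs3 at 4.20 and Ghrhr at -3.29 lie farthest out, and the points of the genes behind the IGF1 receptor fall on both sides of 0.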

How the data were processed

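Kidney poly(A) RNA of 3 Cdo1KKO/Sed and 3 WT/Sed mice was sequenced. The authors deposited whole-number counts per gene, and TPM, which are counts scaled by gene length and library. Per the submitters' processing notes, fastp 0.23.4 and the builds GRCm38 and mm10 were used; no aligner, counting tool or strand setting is given in the sources used here. Gene positions are from GENCODE M21 and promoters from RefSeq. Genes were kept by filterByExpr, scaled by TMM and compared with a robust quasi-likelihood test in edgeR 4.0.16 (R 4.3.3), with group as covariate and Benjamini-Hochberg adjustment of p-values over 17194 genes. The SE is the absolute log2 fold change over the square root of F. The script was tested on simulated data. Alternatives used RLE, upper quartile or library size scaling, no filter or 1 CPM in 3 libraries, DESeq2 1.42.0, limma 3.58.1 (voom, and log2 of TPM + 1 or + 0.1), the replicate number as a block, and each library left out.

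The genes of the axis and all lists were chosen with earlier results of these data known. Named are Cdo1, the 10 genes of the axis, the 4 tested genes of smallest p in each pathway list and the 3 genes most like Igfbp1, of which 1 is not reported here; Cish, Pappa, Igf2 and the marker genes named were added after their values were seen. No separate cultures or litters are described beyond the label of biological replicate, and counting limits cover counting error only.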

Additional observations from a re-analysis of the deposited data

How the results depend on the processing

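Over 16 alternatives the 8 tested genes of the axis gave 128 values, of which 123 kept their direction and their side of the threshold, 5 lost the call (all Igfbp5) and 0 changed direction. The axis had 1 higher gene instead of 2 with upper quartile scaling and 1 to 2 without single libraries; lower genes numbered 5 in every alternative. Over all genes, 5513 were higher and 1685 lower by library size only, 6784 and 1246 on log2(TPM + 1), and 6660 and 1224 on log2(TPM + 0.1). The pathway lists had 10 lower genes by library size only and 6 on either TPM scale, against 17. Leaving out single libraries gave 2306 to 3767 higher and 2331 to 3553 lower genes. In the lists it gave 8 to 13 higher and 14 to 19 lower. The median of all genes lay at 0.18 by library size only, 0.19 on log2(TPM + 1) and 0.25 on log2(TPM + 0.1).

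The 24 other named genes gave 383 values, of which 335 were unchanged in direction and call, 37 lost the call, 2 gained it and 9 changed direction. Those 9 concerned genes that had not passed: Igf2r at 0.0885 by library size only, 0.17 on log2(TPM + 1) and 0.18 on log2(TPM + 0.1); Insrr at 0.0891 on log2(TPM + 1) and 0.0993 on log2(TPM + 0.1), and from -0.3506 to 0.0003 without single libraries; and Igf2bp3 from -0.2213 to 0.578 without single libraries. Beyond what follows from other scaling or fewer libraries, the cause was not tested.

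The replicate numbers share no stated origin. Deviations of same-numbered libraries correlated at -0.00218, 0.0105 and 0.0125, and not every library correlated best with its own number. With the replicate number as a block, 3117 genes were higher and 3029 lower, the axis had 2 and 5, and the lists had 11 and 16. With 3 libraries a group, genes of few counts such as Igfbp2 and Igfbp6 are limited by depth.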

Other observations

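Outside the comparisons above, 2 genes of the lists, singled out after their values were seen, are given as values. Esm1, an endothelial proteoglycan with an IGFBP domain, had 25.1, 22.2 and 24.5 CPM in Cdo1KKO/Sed against 13.5, 26.5 and 3.21 CPM in WT/Sed, a spread in WT/Sed of the same order of libraries as that of Igfbp3 (adjusted p = 0.492, edgeR). Socs1, the other inhibitor of JAK kinases on the list, had too few counts to be tested, with 8, 8 and 12 in Cdo1KKO/Sed and 0, 2 and 2 in WT/Sed.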
